A study of Homo sapiens and Mus musculus with 30 samples.

Results

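The insulin, PI3K and mTOR pathway was followed through 34 named genes, matched by symbol, in a set of 30 sequencing libraries. By symbol, 32 of the 34 were found among 11342 human genes, all 34 among 41128 mouse genes, and all 34 among 57820 human genes of a separate let-7a table. IRS4 and PIK3R2 are not in the first human table, which lists only genes at 1 RPKM (reads per kilobase of gene, scaled to a common library size) or more in every total RNA library. The genes were read in groups by role: 6 receptors and their substrates, 10 genes of PI3K, PDPK1, AKT and GSK3, 13 of TSC, the mTOR complexes and their outputs, and 5 of FOXO and AMPK.

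Insulin and the insulin-like growth factors bind receptor tyrosine kinases, which recruit IRS adaptors and PI3 kinase. The lipid that PI3 kinase makes brings PDPK1 and AKT to the membrane, and AKT relieves the brake that the TSC complex places on RHEB and mTOR complex 1. Active mTOR complex 1 promotes translation by phosphorylating the S6 kinases and the 4E-BP proteins, which hold back the cap-binding factor eIF4E, while AMPK restrains it when energy is low and AKT keeps FOXO factors out of the nucleus. LIN28B binds RNA, keeps let-7 precursors from being cut into mature microRNAs and also attaches to many messenger RNAs, and let-7 is known to repress several genes of this pathway.

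The human cells were HEK293A, derived from embryonic kidney, and the mouse cells were NIH3T3 embryonic fibroblasts. In HEK293A, X1, X2, X3 and X4 carry rising amounts of LIN28B, and X0 is the LIN28B knockout. The labels state that LIN28B transgenes were induced with doxycycline at 10 ng/ml, but not whether X0 cells received it. NIH3T3 cells were set at X1 to X4 and X0 in the same way, and no knockout is named in their titles. A further pair of HEK293A libraries came from X0 cells transfected with 10 nM mature let-7a. Each level had 1 polysome library, which holds RNA bound by ribosomes, and 1 total RNA library, so no level has a replicate of its own, although the study describes replicates for each condition; p-values measure only the spread of single libraries around a line, which may be technical.

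The transfected microRNA is shown because the let-7a comparison turns on it. Its mature sequence, as RefSeq gives it on GRCh38.p14, has its seed, bases 2 to 8, in capitals.
hsa-let-7a-5p: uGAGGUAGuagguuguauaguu

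Reads recovered from the RPKM steps came to 37.7 to 56.0 M (M, 10 to the power 6 reads) in the HEK293A total RNA libraries and 9.09 to 14.6 M in their polysome libraries, and to 16.1 to 25 M and 15.9 to 20.8 M in NIH3T3. LIN28B total RNA followed the labels in HEK293A, at 3.60, 23.0, 33.4, 81.2 and 208 RPKM from X0 to X4. The mouse gene Lin28b had 42 total RNA reads at X4 and 1 at X0, and the labels do not say whether the NIH3T3 transgene is human or mouse. Of 8 markers chosen for HEK293A, 6 are in the human table and NEFM and PAX2 are not listed. NIH3T3 held all 8 fibroblast markers at 1 RPKM or more in every total RNA library. All 4 epithelial and the 3 leukocyte markers found stayed under 0.1 RPKM in total RNA. In polysomes the epithelial marker Cdh1 had 0.206 RPKM at X4. Among the human genes listed, 0 of the 4 epithelial and 0 of the 4 leukocyte markers appear. The polysome and total RNA libraries at X0 are shared by every HEK293A comparison below, the let-7a one included.

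The first question was whether the ribosome-bound share of each pathway messenger RNA changed with the amount of LIN28B in HEK293A. Ribosome occupancy was taken as the log2 ratio of polysome to total RPKM, with 0.5 added to each, and was fitted with a straight line over the level rank, 0 to 4, with limma over all genes. Of the 31 pathway genes tested, 4 rose, 16 fell and 11 did not pass an adjusted p of 0.05. Among all 11125 genes tested, 19.1% rose and 39.0% fell, so falls outnumbered rises in the whole table as well. The shares among the pathway genes were 12.9% and 51.6%. The median slope was −0.16 log2 units per level in the pathway genes and −0.07 over all genes. IRS1 had too little RNA for the filter at a mean of 1 RPKM.

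The median of all genes was itself lower at X4 than at X0, by −0.32 log2 units, against −0.68 for the pathway genes. After the trimmed mean of each library was subtracted, which is called centring below, 6 pathway genes rose and 11 fell, beside 3210 rises and 2981 falls over all genes. The pathway genes that passed only before centring were INSR, IGF1R, IRS2, MLST8 and STK11, and those that passed only after it were PIK3CA and PIK3R1. The number of calls depends on which levels are fitted. Without the X4 libraries 0 of the 31 pathway genes and 0 of all genes passed in limma (15 of the 31 at an unadjusted p under 0.05), while the median slope of the 31 was −0.16, as with all levels. AKT1 (−0.35), TSC2 (−0.32), IRS2 (−0.28) and EIF4EBP1 (−0.25) then had an adjusted p of 0.0841 each. Without X0 the 4 that passed were AKT1, IGF2R, RPTOR and TSC2, all lower, and the median slope was −0.14. These 4 are 12.9% of the 31, near the 13.6% of all genes that fell in that fit, where 1.47% rose. Without X3 the calls of INSR (adjusted p = 0.0688), PRKAA1 (0.0632) and STK11 (0.0638) were lost, and edgeR's count test did not call INSR (adjusted p = 0.112). In simulated data limma made more false calls for this comparison than the threshold aims at, and edgeR did not. Those counts were drawn from the kind of count model that edgeR assumes, with the same dispersion for every gene and few genes changed. The simulation therefore cannot show how many false calls either test makes in these data, where most genes passed. On the recovered reads edgeR's count test called 6 of the 31 higher and 15 lower, beside 3289 higher and 3201 lower over all genes. These are bulk RNA measurements, in which fewer cells with an RNA and less of it per cell cannot be told apart.

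**Figure D1:**
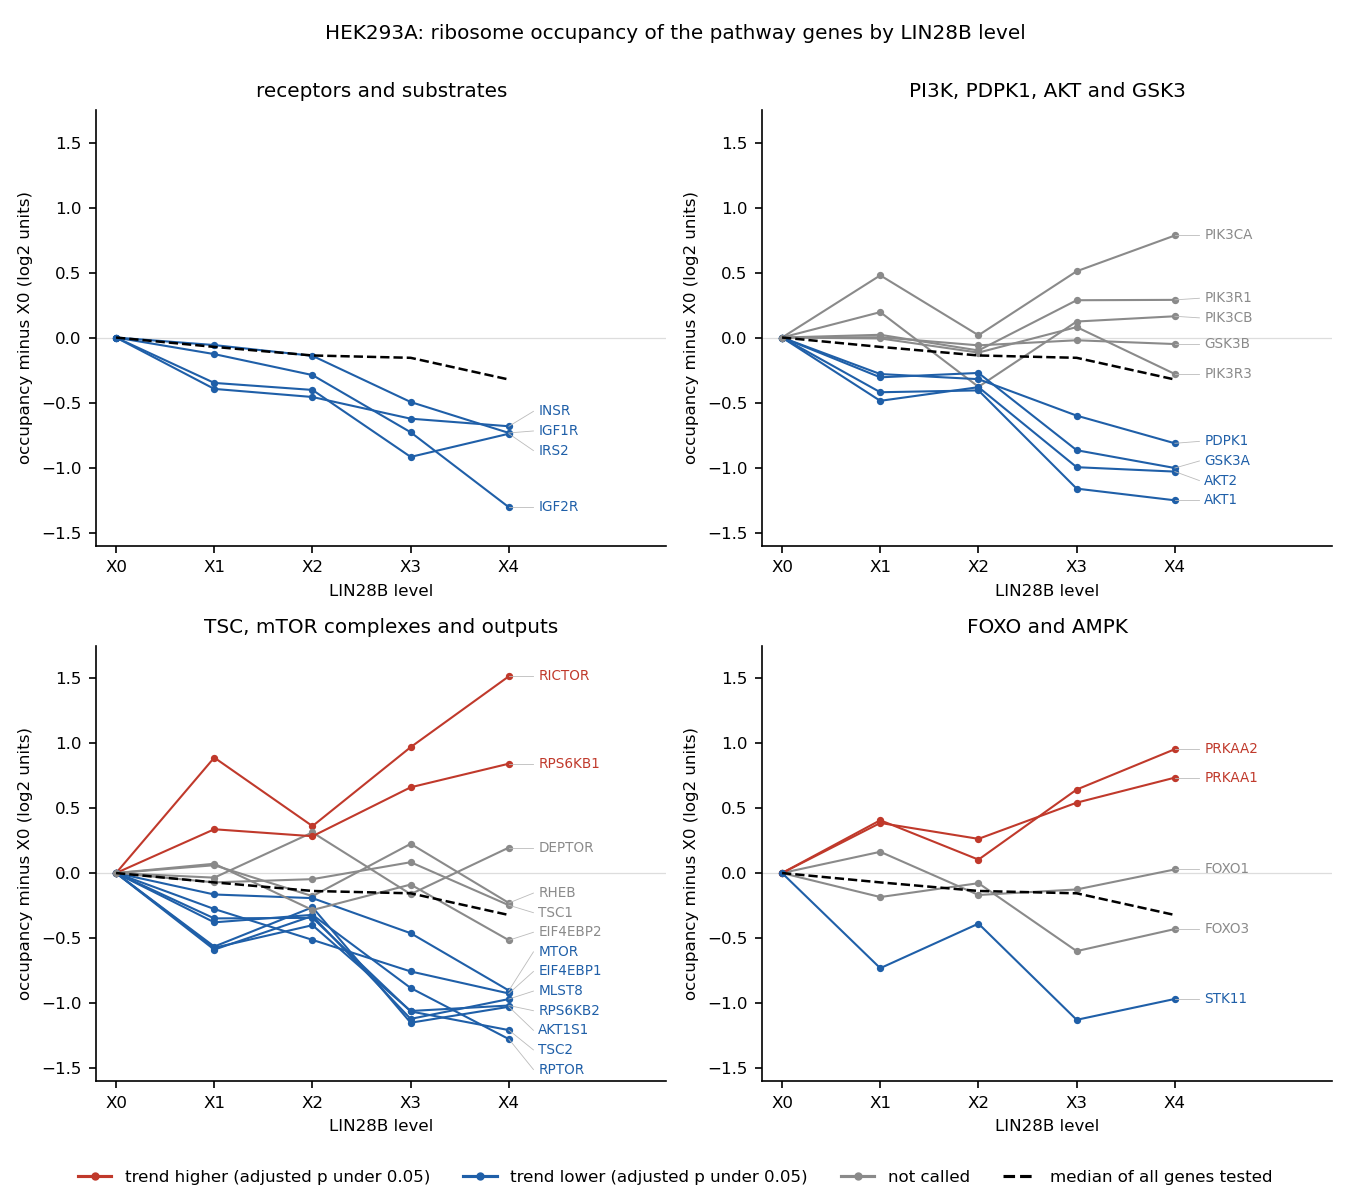
Ribosome occupancy of 31 pathway genes in HEK293A, as the difference from X0 in log2 units (y axis) at the 5 LIN28B levels (x axis), in a panel for each role; each point is 1 pair of libraries, colour gives the trend call and the dashed line is the median of all 11125 genes. RICTOR ends highest at 1.51 and IGF2R lowest at −1.31, and the 16 genes that fell lie below the dashed line at X4.

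All 4 receptors and substrates that could be tested lost occupancy. After centring 1 of them, IGF2R, still fell and 3 did not pass. The receptor for insulin-like growth factor 2, IGF2R, which carries that hormone and lysosomal enzymes to the lysosome, had 7.30, 5.95, 5.42, 3.96 and 2.70 RPKM in polysomes from X0 to X4. Its total RNA stayed between 18.7 and 21.1 RPKM. Polysome RNA was thus lower at each level than at the one below it, and occupancy fell by 0.32 ± 0.06 log2 units per level (± SE; limma's adjusted p = 0.00337), ending 2.47-fold lower at X4 than at X0. The insulin receptor INSR had 2.62, 2.03, 2.06, 1.76 and 1.84 RPKM in polysomes, with total RNA of 4.02, 4.31, 4.59, 4.54 and 4.93 RPKM. Its occupancy fell by 0.16 ± 0.05 per level (adjusted p = 0.0236), and all 4 levels with LIN28B lay below X0.

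The IGF1 receptor, IGF1R, was flat in polysomes up to X2, with 4.35, 4.40 and 4.50 RPKM at X0, X1 and X2, and then lower at X3 and X4, with 3.49 and 2.77 RPKM. Its occupancy fell by 0.19 ± 0.05 per level (adjusted p = 0.0115). IRS2, the adaptor that links these receptors to PI3 kinase, had 13.5, 9.19, 9.38, 6.37 and 6.34 RPKM in polysomes and 17.9, 15.7, 16.7, 16.6 and 14.5 RPKM in total RNA. Its values fall into steps, with X0 highest, X1 and X2 alike, and X3 and X4 alike and lowest (slope −0.20 ± 0.06, adjusted p = 0.0122). IRS1, the sister adaptor, had 0.739, 0.706, 0.790, 0.451 and 0.265 RPKM in polysomes, resting on 29 reads at X4 and 91 at X0. With no filter on low values it was counted among the genes that fell.

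In the PI3K, PDPK1, AKT and GSK3 group 0 of 9 genes rose, 4 fell and 5 did not pass. AKT1, the most widely expressed of the AKT kinases, had 15.5, 10.5, 11.1, 6.97 and 6.08 RPKM in polysomes and 14.5, 13.4, 14.0, 15.2 and 14.2 RPKM in total RNA. Its slope of −0.32 ± 0.06 (adjusted p = 0.00331) was the steepest fall among the 31 genes, and occupancy was 2.38-fold lower at X4 than at X0. AKT2, the form best known for insulin-driven glucose uptake, had 19.4, 13.3, 14.3, 9.34 and 7.60 RPKM in polysomes. Both AKT genes dropped at X1, held at X2 and dropped again at X3, and AKT2 fell by 0.26 ± 0.06 per level (adjusted p = 0.00544).

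GSK3A, a glycogen synthase kinase that AKT inhibits, had 44.6, 36.2, 36.7, 25.1 and 19.7 RPKM in polysomes and fell by 0.26 ± 0.06 (adjusted p = 0.00499). Its paralog GSK3B had 7.79, 7.30, 6.74, 6.67 and 7.23 RPKM, a range of about 1 RPKM, and a slope of −0.01 ± 0.05 (adjusted p = 0.840). The GSK3B slope was 0.06 after centring. PDPK1, the kinase that phosphorylates the activation loop of AKT, had 3.33, 2.59, 2.62, 2.08 and 1.88 RPKM in polysomes and fell by 0.19 ± 0.05 (adjusted p = 0.00881).

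The PI3 kinase subunits themselves did not pass in limma with all levels before centring. PIK3CA, a catalytic subunit, had 1.38, 1.96, 1.28, 1.92 and 2.93 RPKM in polysomes, so that X4 stood 2.12-fold above X0 while X2 lay just under X0. Its slope was 0.16 ± 0.07 (adjusted p = 0.0576; 0.0183 after centring; 0.00893 to 0.44 over its 14 alternatives). The regulatory subunit PIK3R1 had 1.03, 1.12, 0.911, 1.30 and 1.45 RPKM in polysomes (slope 0.08 ± 0.05, adjusted p = 0.196; 0.0359 after centring). By edgeR's count test both PIK3CA (adjusted p = 0.00893) and PIK3R1 (0.0248) were called higher. The catalytic subunit PIK3CB (slope 0.03) and the regulatory subunit PIK3R3 (slope −0.05) had adjusted p of 0.754 and 0.472, and the PIK3R3 slope was 0.02 after centring. These 4 subunits had the lowest polysome levels of their group together with PDPK1, between 0.911 and 4.44 RPKM, with 90 to 367 reads per library.

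Within TSC, the mTOR complexes and their outputs, 2 of 13 genes rose, 7 fell and 4 did not pass. RPTOR and RICTOR, the scaffold subunits that define mTOR complex 1 and mTOR complex 2, went in opposite directions. RICTOR had 1.44, 2.92, 1.99, 2.91 and 5.16 RPKM in polysomes, on 242, 489, 247, 579 and 768 reads, and 3.73, 3.52, 3.72, 3.29 and 3.81 RPKM in total RNA. Every level with LIN28B was above X0, though X2 lay below X1. RPTOR had 5.31, 3.91, 4.40, 3.08 and 1.93 RPKM in polysomes and 8.31, 8.21, 8.78, 9.52 and 8.43 RPKM in total RNA. The polysome levels of the pair therefore crossed, RPTOR standing above RICTOR from X0 to X3 and RICTOR above RPTOR at X4, on this per-length scale. RICTOR rose by 0.31 ± 0.08 per level (adjusted p = 0.00838) and RPTOR fell by 0.31 ± 0.06 (adjusted p = 0.00337). At X4 the occupancy of RICTOR was 2.85-fold higher, and that of RPTOR 2.42-fold lower, than at X0.

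MTOR, the kinase common to both complexes, had 9.64, 9.31, 9.14, 7.55 and 5.35 RPKM in polysomes and 20.4, 22.2, 22.3, 22.4 and 22.1 RPKM in total RNA. It changed little up to X2 and lay lowest at X4, with a slope of −0.21 ± 0.05 (adjusted p = 0.00891). MLST8, the other subunit of both complexes, had 42.6, 27.9, 34.5, 20.5 and 15.4 RPKM in polysomes. AKT1S1, also called PRAS40, an inhibitor of mTOR complex 1 that AKT phosphorylates, had 43.2, 28.5, 35.3, 20.2 and 17.2 RPKM. These genes share a dip at X1, a partial return at X2 and their lowest levels at X3 and X4, and fell by 0.25 ± 0.07 for MLST8 (adjusted p = 0.0117; 0.0503 after centring; 0.00159 to 0.31 over its 15 alternatives) and by 0.26 ± 0.07 for AKT1S1 (adjusted p = 0.0103). DEPTOR, an inhibitor of both complexes, had 2.99, 2.68, 2.87, 1.87 and 2.53 RPKM in polysomes on 69 to 97 reads, and its slope of 0.03 ± 0.06 did not pass (adjusted p = 0.729).

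The TSC pair also divided. TSC2, the subunit with the GTPase-activating domain that acts on RHEB, had 6.56, 5.28, 5.45, 3.53 and 2.53 RPKM in polysomes beside 11.7, 12.3, 12.6, 14.1 and 11.6 RPKM in total RNA. Its occupancy fell by 0.31 ± 0.06 (adjusted p = 0.00334) and was 2.31-fold lower at X4 than at X0. TSC1, its stabilising partner, had 4.78, 4.73, 4.55, 4.97 and 4.17 RPKM in polysomes and a slope of −0.03 ± 0.05 (adjusted p = 0.598), or 0.03 after centring. RHEB, the small GTPase that activates mTOR complex 1, had 19.0, 19.995, 16.4, 21.7 and 19.0 RPKM in polysomes, without order along the levels (slope −0.03 ± 0.06, adjusted p = 0.692; slope 0.04 after centring).

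Among the outputs, the S6 kinases, which phosphorylate ribosomal protein S6, went opposite ways. RPS6KB1 had 7.41, 9.88, 9.54, 11.7 and 15.1 RPKM in polysomes and 11.5, 12.0, 12.0, 11.2 and 12.7 RPKM in total RNA. RPS6KB2 had 16.4, 13.1, 15.0, 10.2 and 8.18 RPKM in polysomes and 22.1, 26.6, 26.9, 29.3 and 23.0 RPKM in total RNA. RPS6KB2 was the more abundant in polysomes from X0 to X2 and RPS6KB1 at X3 and X4. RPS6KB1 rose by 0.20 ± 0.05 per level (adjusted p = 0.0104) and RPS6KB2 fell by 0.25 ± 0.06 (adjusted p = 0.00714).

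EIF4EBP1, or 4E-BP1, the inhibitor of eIF4E, was the most abundant of the human pathway genes in both fractions. It had 247, 199, 157, 133 and 96.5 RPKM in polysomes and 106, 103, 96.2, 96.4 and 78.5 RPKM in total RNA. Its polysome level was lower at each step, and its occupancy fell by 0.23 ± 0.05 (adjusted p = 0.00432). EIF4EBP2, the form best known from the brain, had 12.1, 15.4, 11.8, 13.5 and 10.4 RPKM in polysomes beside 37.6, 45.1, 44.9, 44.4 and 46.7 RPKM in total RNA, and did not pass (slope −0.12 ± 0.06, adjusted p = 0.0965).

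**Figure D2:**
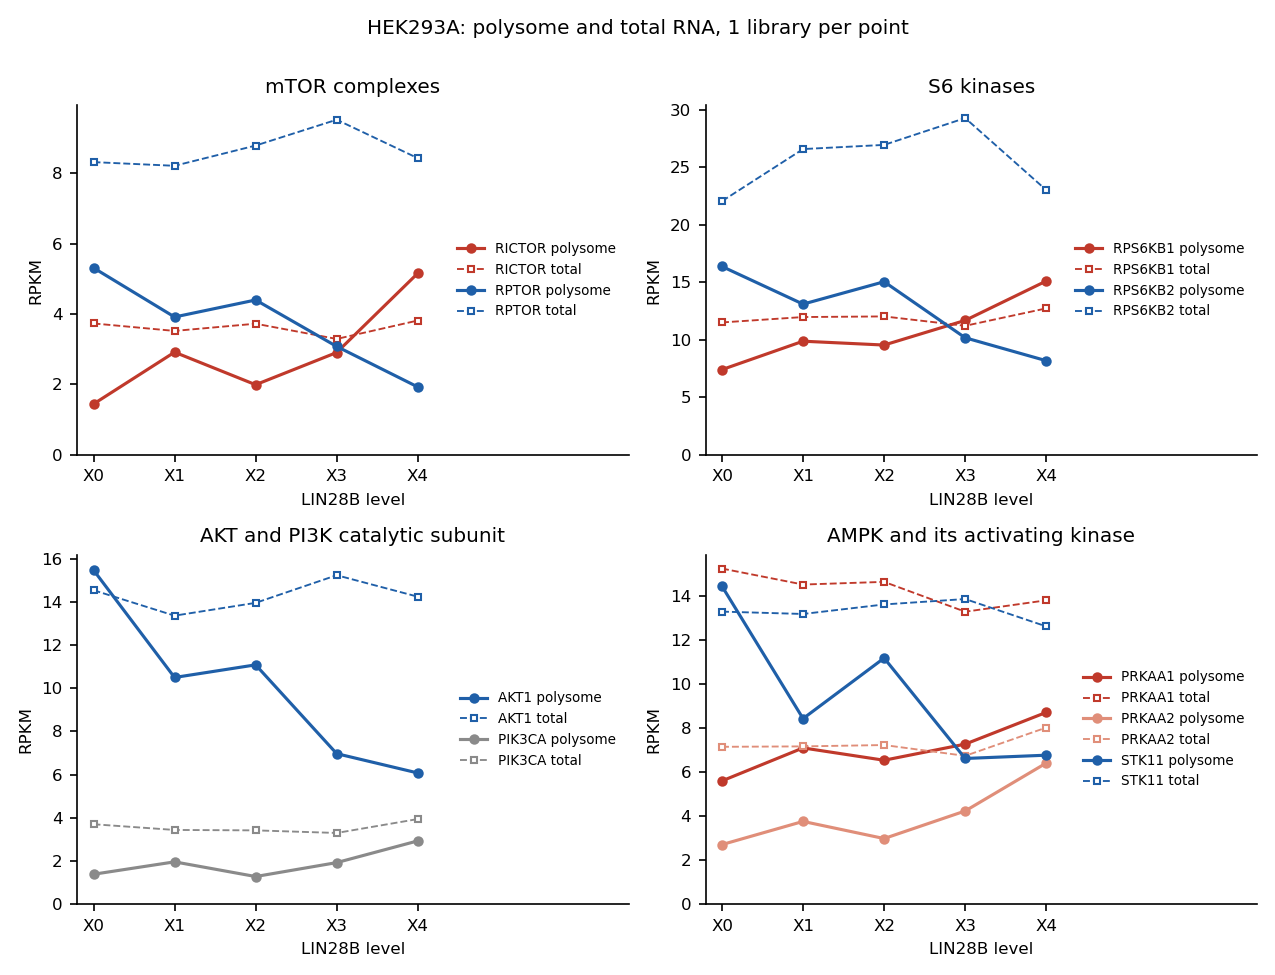
RPKM (y axis, from 0) at the 5 LIN28B levels (x axis) for 4 sets of partner genes in HEK293A; filled circles and solid lines are polysome RNA, open squares and dashed lines total RNA, with 1 library per point. The polysome lines of RICTOR and RPTOR cross, ending at 5.16 and 1.93 RPKM at X4, and those of RPS6KB1 and RPS6KB2 end at 15.1 and 8.18 RPKM, while the dashed lines of RICTOR and RPTOR stay within 3.29 to 3.81 and 8.21 to 9.52 RPKM.

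In the FOXO and AMPK group 2 of 5 genes rose and 1 fell. PRKAA1 and PRKAA2, the catalytic subunits of AMPK, both rose. PRKAA1 had 5.6, 7.10, 6.54, 7.27 and 8.72 RPKM in polysomes and 15.3, 14.5, 14.7, 13.3 and 13.8 RPKM in total RNA. PRKAA2 had 2.71, 3.76, 2.98, 4.23 and 6.41 RPKM in polysomes and 7.15, 7.17, 7.23, 6.74 and 8.03 RPKM in total RNA. Each was higher than at X0 at all 4 levels with LIN28B, and the slopes were 0.16 ± 0.05 (adjusted p = 0.0237) for PRKAA1 and 0.21 ± 0.06 (adjusted p = 0.0141) for PRKAA2. STK11, also called LKB1, the kinase that activates AMPK, had 14.5, 8.44, 11.2, 6.62 and 6.77 RPKM in polysomes. It fell by 0.23 ± 0.07 per level (adjusted p = 0.0182), so that the kinase and its substrates moved apart. After centring STK11 did not pass (adjusted p = 0.0780; 0.00155 to 0.31 over its 15 alternatives).

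The FOXO transcription factors, which AKT keeps inactive, did not pass. FOXO1 had 4.42, 5.21, 3.95, 4.12 and 4.49 RPKM in polysomes (slope −0.02 ± 0.05, adjusted p = 0.729; slope 0.04 after centring). FOXO3 had 1.81, 1.34, 1.5, 0.969 and 1.21 RPKM on 103 to 173 reads (slope −0.13 ± 0.06, adjusted p = 0.0745), and all its levels with LIN28B lay below X0.

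The rest of the pathway was read from lists of named genes outside the 34. Of 9 measured adaptors, ligands and binding proteins 0 rose and 7 fell, with a median slope of −0.23. The adaptor SHC1, which couples receptors to RAS, had 15.9, 11.4, 10.1, 7.38 and 5.70 RPKM in polysomes (slope −0.29, adjusted p = 0.00334). Of 10 phosphatases and inhibitors of PI3K and AKT 0 rose and 8 fell, with a median of −0.26. INPPL1, or SHIP2, a phosphatase that removes the 5-phosphate of the PI3 kinase lipid product, had 21.8, 14.0, 14.4, 9.08 and 7.07 RPKM in polysomes (slope −0.35, adjusted p = 0.00319). After centring 5 adaptors and 6 phosphatases and inhibitors still fell, and 0 of either list rose.

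Other mTOR complex subunits and assembly factors gave 0 rises and 3 falls among 5. One of the falls was MAPKAP1, or SIN1, a subunit of mTOR complex 2 alongside RICTOR, with 17.2, 14.2, 12.6, 9.95 and 7.68 RPKM in polysomes (slope −0.29, adjusted p = 0.00329). RICTOR and MAPKAP1 therefore moved in opposite directions although their proteins work in the same complex. Amino acid sensing by mTOR complex 1 was divided, with 5 rises and 10 falls of 28 genes (6 rises and 5 falls after centring). LAMTOR3, of the Ragulator complex that anchors mTOR complex 1 at the lysosome, had 14.0, 20.8, 20.8, 28.1 and 42.0 RPKM in polysomes (slope 0.30, adjusted p = 0.00319), and LAMTOR5 of the same complex rose as well (slope 0.16). NPRL3, of the GATOR1 complex that inhibits this branch, had 9.32, 6.40, 6.09, 3.15 and 2.11 RPKM (slope −0.35, adjusted p = 0.00319).

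Of 7 other PI3K and AKT family genes 2 rose and 2 fell. PIK3C2A, a class II PI3 kinase, had 4.23, 5.94, 5.36, 8.23 and 13.6 RPKM in polysomes beside 13.6, 14.1, 14.1, 13.1 and 15.1 RPKM in total RNA (slope 0.34, adjusted p = 0.00335), the steepest rise among the pathway genes named here. Other outputs of mTOR complex 1 gave 3 rises and 5 falls of 10, with PDCD4, a translation inhibitor that S6 kinase marks for destruction, at 0.17 per level, ribosomal protein gene RPS6 at 0.15, and the autophagy gene ATG13 at −0.32. Other FOXO and AMPK genes gave 0 rises and 6 falls of 12, or 3 rises and 4 falls after centring. Among the falls was CAMKK2, a further kinase upstream of AMPK, with 12.4, 8.56, 8.69, 5.6 and 3.73 RPKM in polysomes (slope −0.30, adjusted p = 0.00338). Of 6 genes reported elsewhere as let-7 targets 1 rose, RICTOR, and 4 fell, or 1 and 1 after centring. Of the 6 listed HEK293A identity markers, which lie outside the pathway, 0 rose and 5 fell.

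Gene length and the GC content at the start of the transcript, which had not been used to choose the genes, were set beside the slopes. Relative gene length, read from the RPKM steps, had a Spearman correlation of −0.09 with the occupancy slope over 31 genes. The GC content of the first 50 transcribed bases, from RefSeq starts on GRCh38.p14, was available for 27 of the 31 and had a correlation of −0.36 with the slope. Its median was 67.0% in the 4 genes that rose, 71.0% in 10 that did not pass and 78.0% in 13 that fell. Over all genes, of which 8045 of 11125 had such a value, the correlation was −0.23 and the medians ran in the same order, at 64.0%, 68.0% and 70.0%. With fewer than 80 in 100 of all genes matched, that check is void as a background. GC content over the whole RefSeq promoter window had a correlation of −0.05 with the slope in the pathway genes, with medians of 75.5%, 66.2% and 75.3%. Over all genes, with the same incomplete match, it was −0.23, with medians of 62.3%, 65.3% and 68.3%. These correlations are across genes measured in the same libraries, and genes are not replicates.

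Fewer pathway genes passed in total RNA. Of 32 genes 0 rose and 1 fell in HEK293A, beside 1.48% rising and 0.758% falling among all 11342 genes (5 of the 32 at an unadjusted p under 0.05; edgeR's count test also called 1). The gene that fell was PIK3R3, the p55 gamma regulatory subunit of PI3 kinase, with 4.02, 3.40, 3.17, 2.59 and 2.49 RPKM from X0 to X4. It was lower at each level than at the one before, with a slope of −0.15 ± 0.03 (adjusted p = 0.0298, limma). Its polysome RNA followed, at 2.79, 2.33, 1.96, 1.88 and 1.29 RPKM, so that its occupancy did not pass. The call was lost without X0 (adjusted p = 0.227), without X3 (0.0531) and when X1 to X4 as a group were compared with X0 (0.420).

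EIF4EBP1 (slope −0.10, adjusted p = 0.0781) and DEPTOR (slope −0.11, adjusted p = 0.0954) came next. DEPTOR had 2.91, 2.69, 2.16, 2.09 and 2.09 RPKM. Without X4 there were 3 calls, PIK3R3 and DEPTOR lower and RPS6KB2 higher. RPS6KB2 rose along the first 4 levels and was back near its X0 value at X4. Outside the 34 genes, the mTOR complex 1 inhibitor DDIT4, or REDD1, had 9.19, 4.59, 4.19, 3.73 and 3.33 RPKM in total RNA (slope −0.29, adjusted p = 0.0365), most of the difference lying between X1 and X0. The AKT-binding pseudokinase TRIB3 had 8.38, 8.71, 8.97, 10.4 and 13.0 RPKM (slope 0.15, adjusted p = 0.0374). After centring neither passed (adjusted p = 0.0598 and 0.0555).

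The same question in NIH3T3 gave no call. Occupancy of 28 pathway genes was tested, and 0 passed, as did 0 of all 10952 genes (0%, limma; 552 at an unadjusted p under 0.05; 0 by edgeR's count test). Among the 28 only Foxo1 had an unadjusted p under 0.05, with a slope of 0.18 ± 0.07 (adjusted p = 0.639). That count depends on the X4 libraries. Without them 12 of the 28 and 2748 of all 10952 genes had an unadjusted p under 0.05 in limma, and 0 passed after adjustment. Deptor, Pik3r3, Rictor and Rps6kb1 were below the filter, and Irs4 and Prkaa2 had 0 reads in every library. Rictor had 1.05, 0.43, 0.41, 0.84 and 0.65 RPKM in polysomes and Rps6kb1 0.86, 0.80, 1.2, 1.96 and 1.29 RPKM, so that 3 of the 4 genes that rose in HEK293A, RICTOR, RPS6KB1 and PRKAA2, could not be tested in the mouse line.

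Levels were otherwise well above the filter for many genes. Akt1 had 117, 113, 106, 103 and 115 RPKM in polysomes and 76.4, 80.9, 85.0, 86.7 and 92.0 RPKM in total RNA, with an occupancy slope of −0.08 ± 0.05. Eif4ebp1 had 272, 159, 178, 210 and 242 RPKM in polysomes and 233, 147, 160, 199 and 213 RPKM in total RNA. Its fractions moved together, lowest at X1, and the occupancy slope was −0.01 ± 0.05. Tsc2 and Rptor had the steepest negative slopes of the 28, at −0.14 ± 0.07 and −0.12 ± 0.06. Rptor had 7.59, 6.28, 4.95, 5.12 and 5.86 RPKM in polysomes, below X0 at every level with LIN28B and lowest at X2.

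**Figure D3:**
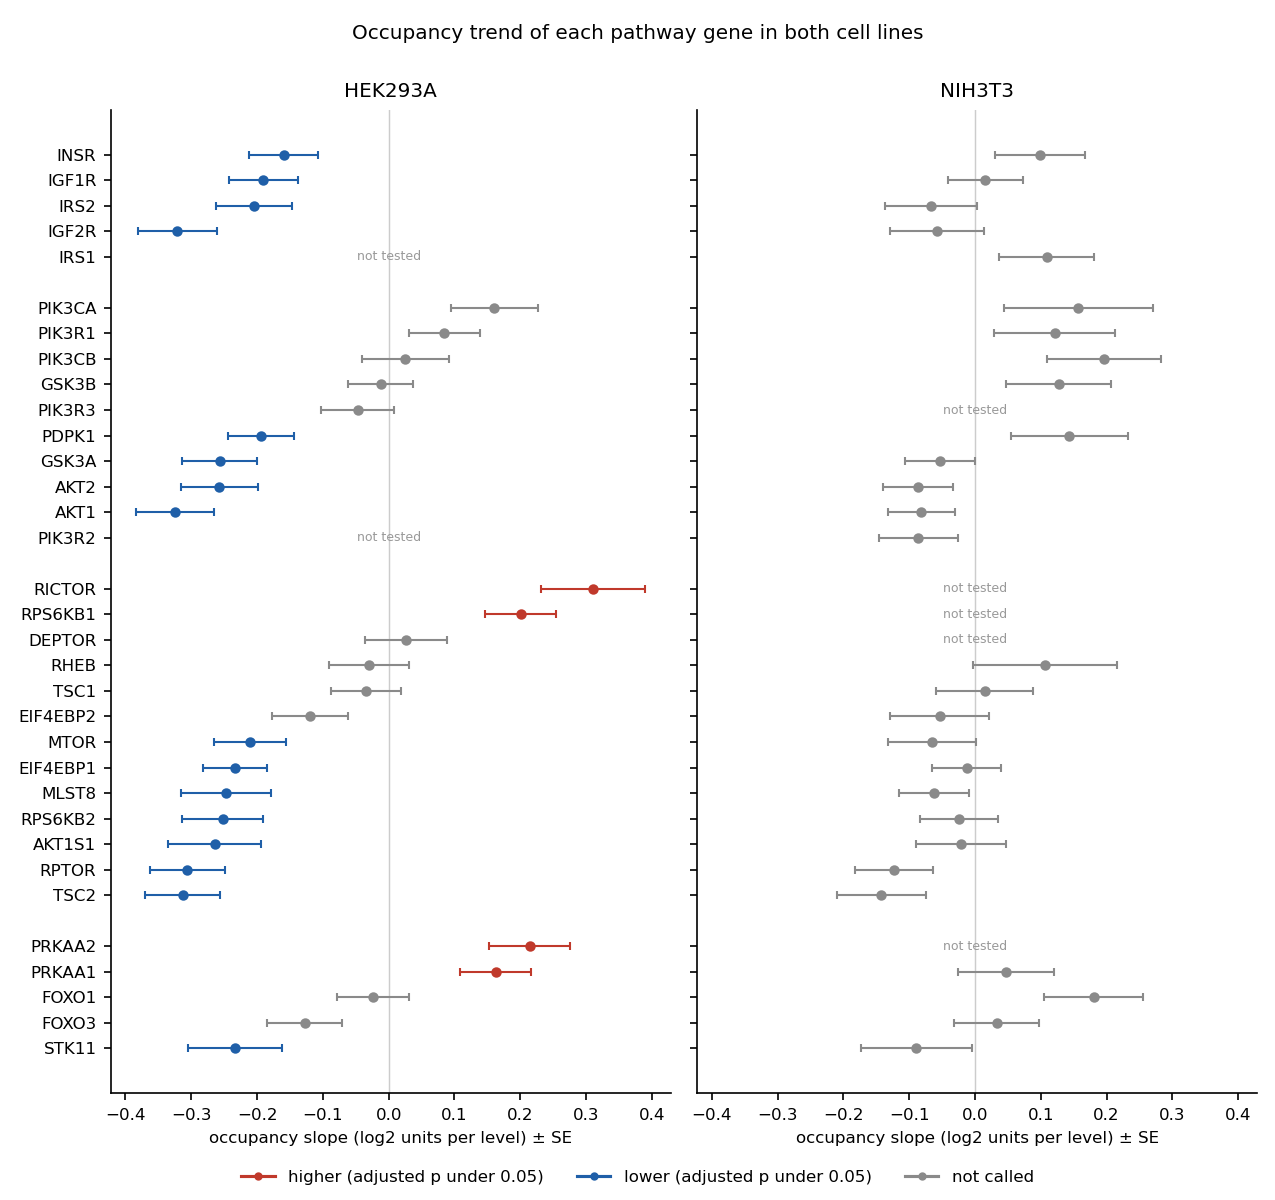
Occupancy slope per LIN28B level in log2 units (x axis, bars are the SE) for each pathway gene (rows, grouped by role, mouse genes in the row of their human symbol), HEK293A left and NIH3T3 right. In HEK293A 4 genes rose and 16 fell, from 0.31 for RICTOR to −0.32 for AKT1, and in NIH3T3 all 28 tested genes lie between 0.20 and −0.14 and 0 passed.

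The difference between the lines was tested itself, as the HEK293A slope minus the NIH3T3 slope over genes paired by symbol. Both slopes are per level, and the levels are not known to hold matching amounts of LIN28B in the lines. The part of this in the differences was not tested. Of 26 pathway genes 0 passed, as did 0 of all 7257 genes (0%, limma; 2589 at an unadjusted p under 0.05, 11 of them pathway genes). PDPK1 came closest by size, with slopes of −0.19 in HEK293A and 0.14 in NIH3T3 and a difference of −0.34 ± 0.10 (adjusted p = 0.0590). INSR (−0.26 ± 0.08, adjusted p = 0.0641), AKT1 (−0.24 ± 0.07, adjusted p = 0.060) and EIF4EBP1 (−0.22 ± 0.07, adjusted p = 0.0594) were near the threshold too. Their adjusted p ran from 0.035 to 0.349 for PDPK1, 0.0453 to 0.690 for INSR, 0.0347 to 0.263 for AKT1 and 0.0296 to 0.295 for EIF4EBP1 over the alternatives. Without X2, 4 of the 26 passed (15.4%), namely AKT1, IGF2R, INSR and PDPK1, all with a difference below 0. Over all genes 12.2% passed below 0 and 0.799% above it in that fit. The mouse genes Pdpk1 and Insr were low, with mean total RNA of 1.57 and 0.931 RPKM, on as few as 160 and 108 reads. A miss of the threshold does not show that the lines respond alike.

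Total RNA in NIH3T3 gave 0 calls over the level rank among 23 pathway genes and 0% of all 10348 genes (limma; 4 and 1136 at an unadjusted p under 0.05; 0 by edgeR's count test). With X1 to X4 set against X0 as a group, 1 of the 23 rose and 2 fell, beside 11.5% rising and 10.2% falling among all genes. These shares were 4.35% and 8.70% among the pathway genes, below the shares over all genes in both directions. The X0 side of this contrast is 1 library, so its spread is assumed from the other levels. That library also stands apart in the fibroblast markers. Of the 8, 5 were above their X0 level at all of X1 to X4 and 2, Vim and Fn1, below it. The summed total RNA of the 8 was 2211 to 2468 RPKM at X1 to X4 and 3593 RPKM at X0. Most of that sum was Vim, with 1430, 1468, 1498 and 1221 RPKM from X1 to X4 and 2994 at X0. The part of this shift in the calls was not tested.

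Igf1r, the IGF1 receptor, had 4.74, 4.14, 4.72 and 5.57 RPKM from X1 to X4, against 2.13 at X0. All 4 lie above X0, by 1.0 log2 units on average (adjusted p = 0.0152). Its polysome RNA followed, at 4.60, 5.00, 5.47 and 6.32 RPKM from X1 to X4 and 2.54 at X0. Pdpk1 had 1.29, 0.91, 1.35 and 1.35 RPKM, against 2.93 at X0 (−1.0, adjusted p = 0.0268), and Foxo1 had 1.24, 0.83, 1.10 and 0.75 RPKM, against 2.56 at X0 (−1.06, adjusted p = 0.0291). Both rest on few reads, from 160 to 325 for Pdpk1 and 74 to 122 for Foxo1 at X1 to X4. In HEK293A the human counterparts IGF1R (0.16), PDPK1 (0.04) and FOXO1 (0.03) had adjusted p of 0.634, 0.952 and 0.962 in the same contrast; this contrast was not tested between the lines.

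**Figure D4:**
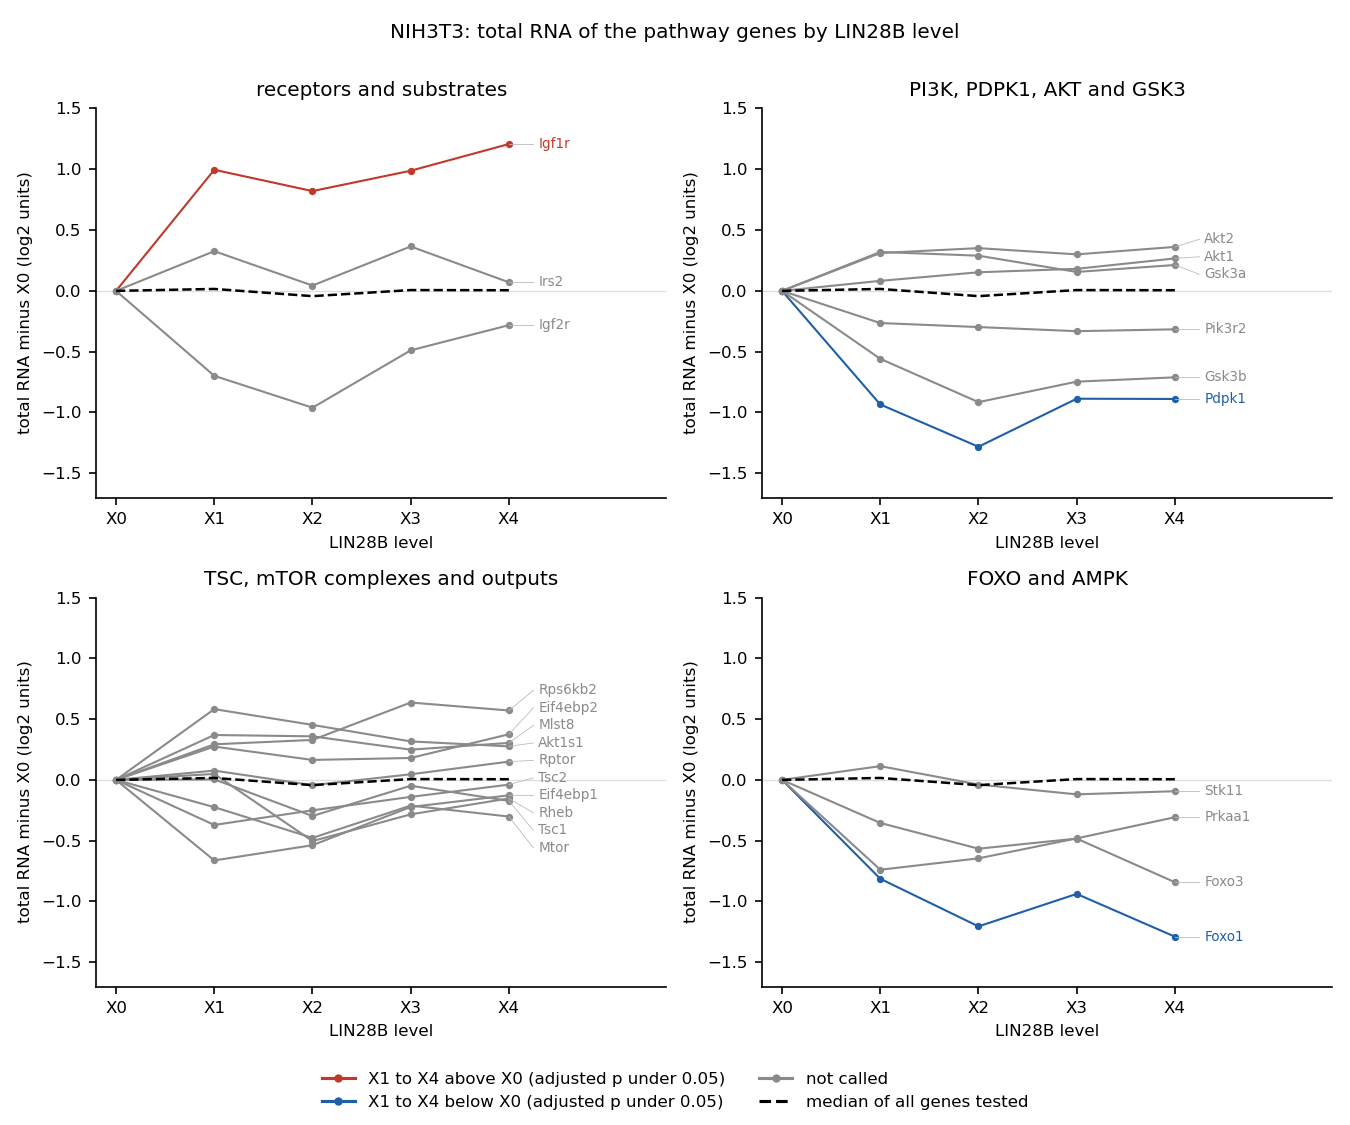
Total RNA of 23 pathway genes in NIH3T3, as the difference from X0 in log2(RPKM + 0.5) (y axis) at the 5 LIN28B levels (x axis), in a panel for each role; each point is 1 library and the dashed line is the median of all 10348 genes. Igf1r lies above X0 and Pdpk1 and Foxo1 lie below it at all of X1 to X4.

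The last comparison set HEK293A X0 cells transfected with let-7a beside untransfected X0 cells. There is 1 library of each kind, the untransfected ones being those of the level series, so no test was made. The values with and without let-7a may have been normalised separately. A gene is called different past 1.5-fold on the log2(RPKM + 0.5) scale. In total RNA 4 of 32 pathway genes were higher and 2 lower, beside 9.62% higher and 8.32% lower among 11305 genes. The median difference was 0.15 log2 units for the pathway genes and 0.00 for all genes. The small RNA libraries hold either AGO2-bound or total small RNA. In transfected X0 cells, features named for let-7a had 5 counts in AGO2-bound and 4 in total small RNA. In transfected X3 cells they had 3 and 1. Each of the 4 untransfected libraries had 0. These counts are too few to measure how much let-7a was taken up.

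PIK3CB had 13.0 RPKM with let-7a and 7.82 without, a ratio of 1.66 (95% counting interval 1.57 to 1.76). PIK3R3 had 6.77 RPKM with let-7a and 4.02 without, STK11 21.4 and 13.3 RPKM, and IGF2R 31.7 and 20.8 RPKM. The 2 lower genes were FOXO1, with 3.78 RPKM with let-7a and 8.27 without (ratio 0.458, 0.421 to 0.497), and RPS6KB2, with 10.7 and 22.1 RPKM (ratio 0.487, 0.463 to 0.512). Only these 2 differed past 2-fold. The intervals cover counting error alone.

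Genes reported as let-7 targets elsewhere and measured here were INSR, IGF1R, IRS2, AKT2, TSC1 and RICTOR. None of the 6 was past 1.5-fold in total RNA, and 2 were below 0. IRS2 had 13.0 RPKM with let-7a and 17.9 without (ratio 0.726, 0.695 to 0.759), and IGF1R had 7.64 and 9.28 RPKM (ratio 0.824, 0.789 to 0.860). INSR was the other way, with 5.31 RPKM with let-7a and 4.02 without (ratio 1.32, 1.24 to 1.41). IRS4 was listed at 0.0285 RPKM with let-7a and PIK3R2, under its 2 identifiers, at 0.0434 and 0.00546 RPKM, so the genes missing from the first human table were near 0 here.

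Occupancy with let-7a was past 1.5-fold higher for 6 of the 32 genes and lower for 0, beside 18.4% and 6.56% of all genes, with medians of 0.23 for the pathway genes and 0.15 for all. EIF4EBP2 stood out in size, with 24.5 RPKM in polysomes with let-7a and 12.1 without, while its total RNA was 27.2 RPKM with let-7a and 37.6 without. Its occupancy was 2.73-fold higher, and no other pathway gene was past 2-fold. TSC1 (0.75 log2 units), TSC2 (0.70), MTOR (0.69), PDPK1 (0.67) and IGF2R (0.65) made up the rest. RICTOR had the lowest value, −0.48, with 1.17 RPKM in polysomes on 120 reads with let-7a and 1.44 on 242 reads without. Taken from the median of all genes, 2 were higher and 1 lower past 1.5-fold, with no share over all genes given on that scale.

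**Figure D5:**
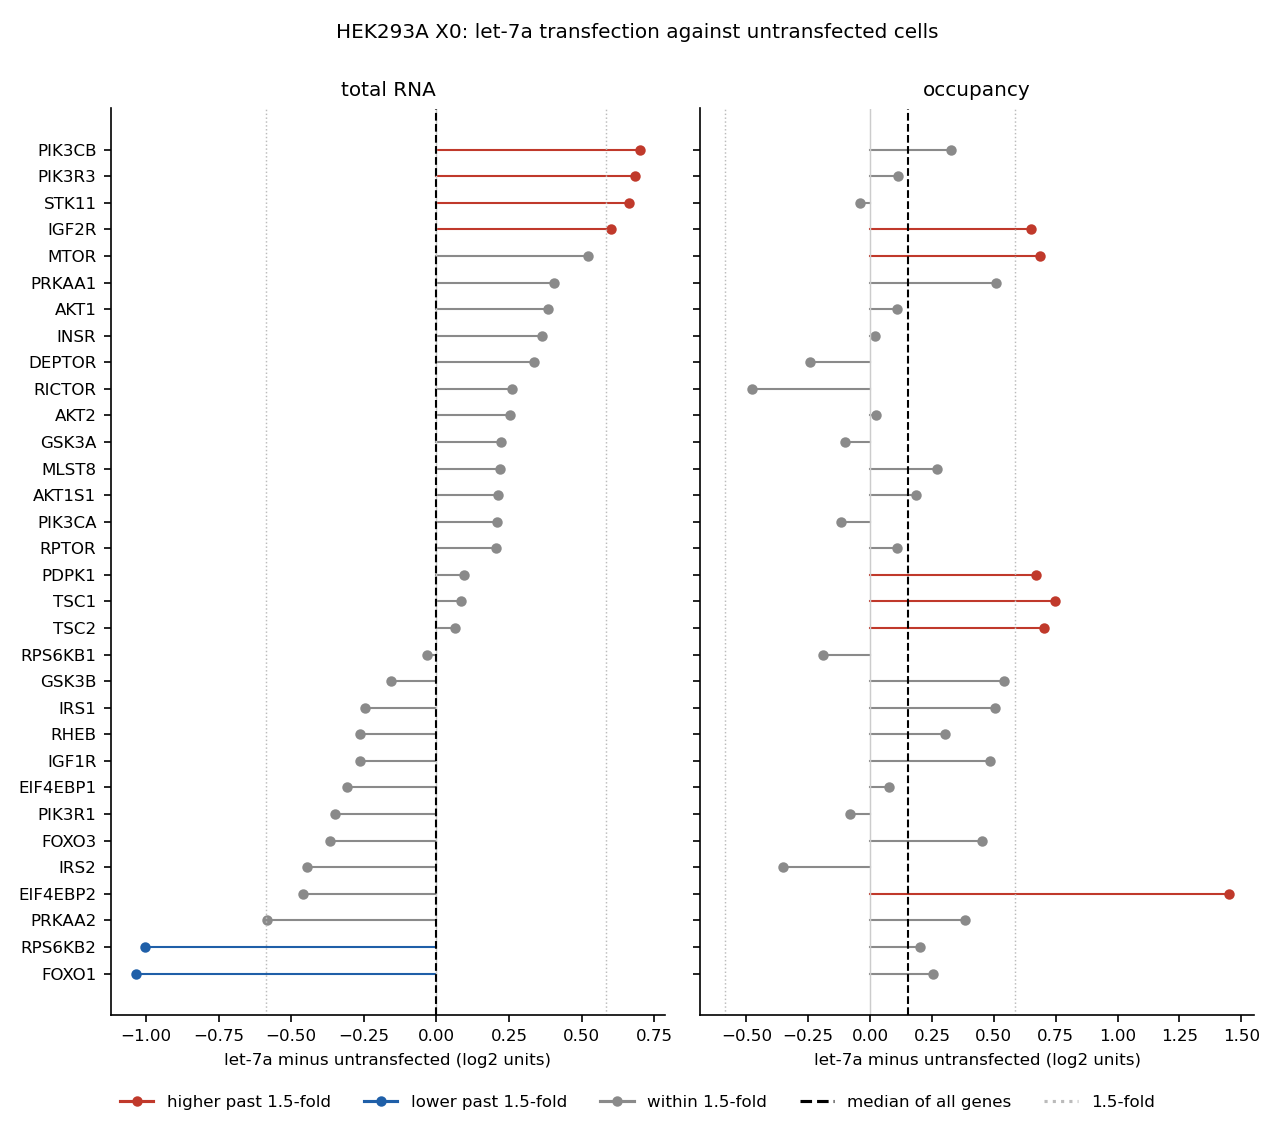
Difference between let-7a transfected and untransfected HEK293A X0 cells in log2 units (x axis) for 32 pathway genes (rows, in order of total RNA), total RNA left and occupancy right, with 1 library of each kind; dotted lines mark 1.5-fold and the dashed line the median of all 11305 genes. FOXO1 and RPS6KB2 lie past 1.5-fold below 0 in total RNA, and EIF4EBP2 is farthest to the right in occupancy, at 1.45.

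The sources do not say whether reads were counted by strand, and 9 of the 34 genes, PIK3CA, PIK3R3, TSC2, MTOR, RPTOR, RICTOR, MLST8, AKT1S1 and STK11, overlap another coding gene in RefSeq, so part of their reads may belong to the neighbour.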

How the data were processed

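Polysome and total RNA from HEK293A and NIH3T3 cells at 5 LIN28B levels, and from let-7a transfected HEK293A X0 cells, were deposited by the authors as RPKM values, 1 column per level and fraction; the labels do not say whether replicates were pooled. Raw counts per feature were deposited for 8 small RNA libraries, AGO2-bound or total, used here for let-7a features. The submitters' processing notes name cutadapt and STAR, and hg19 and mm10 as builds; the sources used here give no counting tool, strand setting or annotation.

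Reads were recovered from the RPKM steps within 0.02 of a whole number, for 100% of the 11125 HEK293A and 10952 NIH3T3 genes at a mean of 1 RPKM and 99.9% of the let-7a genes shared with the human table. Lines over the level rank, 0 to 4, were fitted with limma 3.58.1 (lmFit, eBayes with trend) in R 4.3.3 on all genes at a mean of at least 1 RPKM over the libraries used, after adding 0.5, with Benjamini-Hochberg adjustment over all genes and a threshold of 0.05. edgeR 4.0.16, quasi-likelihood with TMM, was run on recovered reads as an alternative. Where not named otherwise an adjusted p is limma's. The fits were tested on simulated data, in which limma's false calls for HEK293A occupancy exceeded the share aimed at and edgeR's did not. The simulated counts followed the kind of model edgeR assumes, with few genes changed, so they do not measure the false calls of either test in these data. Other alternatives were pseudocounts of 0.1 and 1, a filter at 5 RPKM or none, centring on the trimmed mean, quantile normalization, no variance trend, X0 against the rest, log2 LIN28B in place of rank, and each level left out. Promoter and microRNA sequences came from RefSeq GRCh38.p14. Named genes were all 34 members and, from each list, up to 2 rises and 2 falls that passed at 5 RPKM or more. Members, lists and this rule were chosen with earlier results of these data known.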

Additional observations from a re-analysis of the deposited data

How the results depend on the processing

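No paired analysis was possible because each level has 1 library per fraction and the labels give no replicate numbers. Of the 20 pathway genes called for HEK293A occupancy, 0 passed with X0 set against X1 to X4, and leaving out each level gave 0 to 23 calls. For HEK293A total RNA, where 1 gene was called, 0 passed with X0 against the rest, and 0 over genes at 5 RPKM or more, a filter that removes the called gene, PIK3R3, before testing, while leaving out each level gave 0 to 3. In NIH3T3 total RNA 3 genes passed with X0 against the rest and 0 over the rank. The slope difference between the lines gave 2 calls at 5 RPKM or more, 1 after quantile normalization, and 0 to 4 leaving out each level, against 0. For let-7a at X0, a 2-fold limit left 2 of 6 genes in total RNA and 1 of 6 in occupancy, and occupancy taken from the median gene gave 3 past 1.5-fold, EIF4EBP2 and TSC1 higher and RICTOR lower, the last not among the 6. No share over all genes was set beside these let-7a counts. The causes of the changes between settings were not tested. Over all genes the slope difference called 593 genes with a pseudocount of 1, 1019 at 5 RPKM or more and 411 after quantile normalization, against 0. Without X2 it called 940 genes. Total RNA in HEK293A called 254 genes, but 117 at 5 RPKM or more, 159 after centring, 3 with X0 against the rest, 3 without X0, 119 without X3 and 544 without X4. HEK293A occupancy called 6465 genes, but 2 with X0 against the rest, 1674 without X0 and 0 without X4. NIH3T3 total RNA called 2241 genes with X0 against the rest and 22 without X0, against 0. The 23 calls for HEK293A occupancy came without X2, where 16.1% of the 31 pathway genes rose and 58.1% fell. Over all 11125 genes 21.9% rose and 43.1% fell in that fit. No value changed sign past a threshold. Depth limits IRS1, with 29 polysome reads at X4.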
